A study of Mus musculus with 2 samples.

Results

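The 10 genes described here encode steps of glycolysis and lactate production: Slc2a1, Hk1, Hk2, Pfkp, Pfkfb3, Aldoa, Gapdh, Pgk1, Pkm and Ldha. They were named as a list, and all 10 were found among the 20002 genes of the table. Each of the 10 had at least 10 reads in both libraries, among 17469 genes that reached this number in at least 1 library. RNA was sequenced from whole kidney of C57BL/6J mice fed standard chow and given no drug, with 1 library per group, so no difference has a replicate check. The Control library came from mice given control AAV9, which the study's methods describe in one place as an empty vector and in another as control shRNA. The library labelled CKO came from mice given an AAV9 vector whose shRNA targets Regnase-2, injected at 11 weeks of age. The methods give 14 weeks as the age for RNA sequencing and 16 weeks as the age at harvest. The name CKO stands for conditional knockout, but the agent was an shRNA, and the labels name the proximal tubule as its target while RNA was taken from whole kidney. The methods name the left kidney as the source of RNA, without saying whether a library held 1 mouse or a pool.

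The target gene did not check the label. Zc3h12b, which encodes Regnase-2 and lies on chromosome X of GRCm38 from 95711678 to 95932637, was read 47 times in control kidney and 59 times under the CKO label. After scaling, its log2 ratio was -0.25 and its counting interval ran from -0.83 to 0.33, so a difference was not detectable at this depth, and equal totals put the ratio at 0.16. The group is therefore called the library labelled CKO throughout, and every direction rests on that label.

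Glycolysis turns glucose into pyruvate in the cytosol, and lactate dehydrogenase converts pyruvate and lactate into each other. Glucose enters through carriers, is trapped by hexokinases and is committed to breakdown by phosphofructokinase, after which shared enzymes carry the carbon to pyruvate. In the kidney, proximal tubule cells mainly burn fatty acids and make glucose, and they take up lactate, while more distal segments and many immune cells rely more on glycolysis.

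Reads here are deposited values after a constant, the floor, was subtracted from each column. The totals were 38851231 reads in control kidney and 43588721 in the library labelled CKO. Reads of the library labelled CKO were scaled by 0.667, the median gene ratio of control to CKO. The log2 ratio is that of CKO to control with 1 added to each. Intervals are 95% Clopper-Pearson intervals from the share of CKO reads, without the added 1, and cover counting error only.

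Slc2a1, Hk1, Hk2, Pfkp and Pfkfb3 had higher values under the CKO label, while Aldoa, Gapdh, Pgk1, Pkm and Ldha were level or lower under the main scaling. Of the 10 genes, 6 had a log2 ratio above 0 and 4 below, beside 51.5% of all 17469 genes above 0. The count at least 2-fold higher was 1 of 10, Hk2, beside 13.4% of all genes, and the count at least 2-fold lower was 0 of 10, beside 5.35%. The median log2 ratio of the 10 was 0.22, and that of all genes was 0.02. With equal library totals the median of all genes moved to 0.44, 3 of the 10 genes passed 2-fold higher, beside 21.9% of all genes, and the share of higher among all 2-fold differences went from 71.4% to 89.9%.

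**Figure D1:**
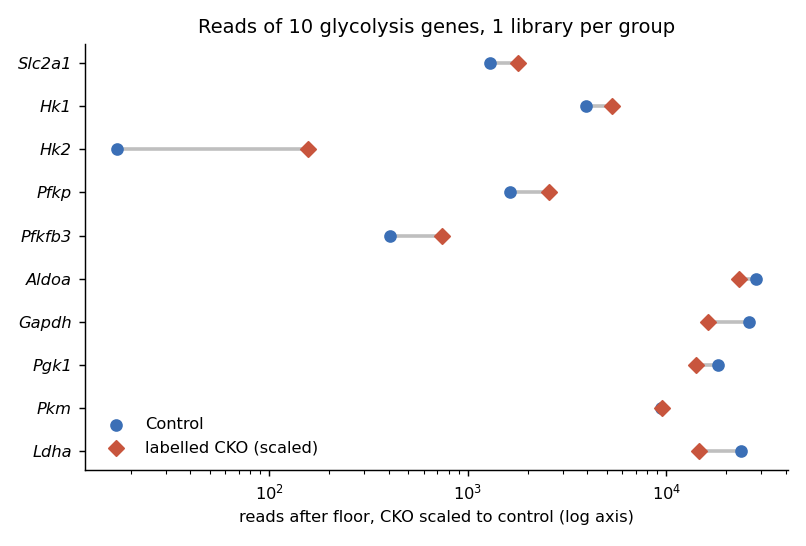
Reads after the floor on a log axis for each gene in pathway order, with circles for the control and diamonds for the scaled library labelled CKO (1 library each). Diamonds lie to the right for the 5 genes from Slc2a1 to Pfkfb3, from 17 to 156 reads for Hk2, and the Pkm symbols coincide at 9378 and 9465 reads.

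Hk2 and Pfkfb3 had the highest log2 ratios of the 10 genes and Gapdh and Ldha the lowest, so their promoters are shown, chosen after the values were seen. They come from RefSeq on GRCm38.p6, run from 250 bases before a start to 50 after it, and read 5′ to 3′ on the gene's strand. For genes with several listed starts the most upstream is printed. Capitals mark ACGTG and GCGTG on either strand, the core letters bound by hypoxia-inducible factors, of which ACGTG overlaps the CACGTG E-box. Hk2 lies at chr6:82774405-82774704 on the minus strand, Pfkfb3 at chr2:11553880-11554179 on the minus strand, Gapdh at chr6:125165724-125166023 on the minus strand, and Ldha at chr7:46845554-46845853 on the plus strand.
Hk2: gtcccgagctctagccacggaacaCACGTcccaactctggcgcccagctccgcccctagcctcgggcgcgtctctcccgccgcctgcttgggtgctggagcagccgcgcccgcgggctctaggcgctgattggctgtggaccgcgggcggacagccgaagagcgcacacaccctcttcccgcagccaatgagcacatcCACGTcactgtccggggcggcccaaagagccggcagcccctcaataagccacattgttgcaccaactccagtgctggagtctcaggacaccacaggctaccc
Pfkfb3: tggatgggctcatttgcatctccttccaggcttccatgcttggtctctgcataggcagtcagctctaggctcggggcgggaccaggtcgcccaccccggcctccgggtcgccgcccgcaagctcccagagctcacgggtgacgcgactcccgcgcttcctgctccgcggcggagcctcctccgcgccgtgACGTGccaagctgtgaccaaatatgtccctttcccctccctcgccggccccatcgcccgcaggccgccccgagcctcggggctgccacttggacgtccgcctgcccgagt
Gapdh: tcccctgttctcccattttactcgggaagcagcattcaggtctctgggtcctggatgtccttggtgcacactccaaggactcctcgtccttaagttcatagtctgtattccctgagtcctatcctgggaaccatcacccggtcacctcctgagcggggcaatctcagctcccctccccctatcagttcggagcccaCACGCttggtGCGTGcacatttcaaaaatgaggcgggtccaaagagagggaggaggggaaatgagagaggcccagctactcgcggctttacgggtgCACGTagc
Ldha: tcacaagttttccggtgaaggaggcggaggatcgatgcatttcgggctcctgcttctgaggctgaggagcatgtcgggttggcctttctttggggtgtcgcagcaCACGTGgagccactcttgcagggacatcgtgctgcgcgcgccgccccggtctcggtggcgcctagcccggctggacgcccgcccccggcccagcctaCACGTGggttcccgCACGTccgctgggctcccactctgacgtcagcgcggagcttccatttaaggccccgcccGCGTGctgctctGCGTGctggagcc

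These letters occurred in the promoters of genes with high and with low ratios alike. All 10 genes matched the promoter table, with 16 starts, and 13 of the 16 windows held at least 1 match, beside 43.8% of 32851 windows of the same length. Of the most upstream windows, 1 per gene, 7 of 10 held a match. Windows of 1 gene can overlap, as for Aldoa. The Ldha window had the most matches of the 16, 7, where each CACGTG counts on both strands, and the Hk2 window had 2. The most upstream windows of Hk1, Aldoa and Pkm had 0, but the other listed start of Hk1 had 5, that of Pkm 2 and those of Aldoa 1 each. The printed Pfkfb3 window had 1 and its other listed start 4. All 10 genes had a match in at least 1 window. A match is a description of letters and not of binding.

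Glucose entry was represented by Slc2a1, which encodes the carrier GLUT1 (gene ID 20525, chromosome 4 from 119108711 to 119137983). It was read 1295 times in control kidney and 2682 times under the CKO label, or 1788 after scaling. This was 1.38-fold higher, with an interval of 1.29 to 1.48. Slc2a2, the carrier GLUT2 of the basolateral proximal tubule membrane, had 6192 and 8543 reads (log2 ratio -0.12, but 0.30 with equal totals). The difference between the log2 ratios of Slc2a1 and Slc2a2 was 0.59, with an interval of 0.48 to 0.69. Library scaling cancels in such a difference, because both genes are read in the same libraries.

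Hexokinases trap glucose as glucose 6-phosphate. Hk2, which encodes a hexokinase bound to mitochondria (gene ID 15277, chromosome 6 from 82725025 to 82774454), was read 17 times in control kidney and 234 times under the CKO label. Its log2 ratio of 3.12, with an interval of 2.49 to 4.002, ranked 140 from the top of 17469 genes. The width of that interval comes from the 17 control reads. Hk1, the widely expressed hexokinase (gene ID 15275, chromosome 10 from 62268855 to 62379908), had 3931 and 7949 reads and was 1.35-fold higher, with an interval of 1.30 to 1.40. The difference of log2 ratios, Hk1 minus Hk2, was -2.77, from -3.57 to -2.05, but -1.46 in the values as deposited, where the floor raises the low Hk2 values.

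Per kilobase of transcript, Hk1 kept most of the hexokinase signal in both libraries. It made up 97.6% of the reads per kilobase of Hk1, Hk2, Hk3 and Hkdc1 in control kidney and 93.9% in the library labelled CKO. The share of Hk2 was 0.328% in the control, with a Clopper-Pearson interval of 0.191% to 0.524%, and 2.15% in the library labelled CKO, from 1.88% to 2.44%. Hk3, a hexokinase known from myeloid cells, had 5 and 74 reads (log2 ratio 3.07), with an interval of 2.02 to 4.97. Hkdc1, which encodes a hexokinase domain protein, had 62 and 191 reads (log2 ratio 1.03), from 0.62 to 1.48.

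Phosphofructokinase is the committing step. Pfkp, the platelet-type subunit (gene ID 56421, chromosome 13 from 6579768 to 6648777), was read 1624 times in control kidney and 3860 times under the CKO label. It was 1.58-fold higher, from 1.49 to 1.68. The liver-type Pfkl and muscle-type Pfkm had log2 ratios of -0.24 each, which equal totals turn above 0, and the log2 ratio of Pfkp exceeded theirs by 0.90 and 0.91. The intervals of these differences ran from 0.79 to 1.01 and from 0.78 to 1.03. Of the 3 subunits per kilobase, Pfkp made up 22.5% in the control, from 21.6% to 23.6%, and 35.2% in the library labelled CKO, from 34.3% to 36.2%.

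Pfkfb3 makes fructose 2,6-bisphosphate, the activator of phosphofructokinase (gene ID 170768, chromosome 2 from 11471433 to 11554077). It was read 407 times in control kidney and 1116 times under the CKO label, 1.83-fold higher, with an interval of 1.63 to 2.05 that includes 2-fold. Pfkfb2, an isozyme of the same family, had 1275 and 1796 reads (log2 ratio -0.09), with an interval of -0.20 to 0.01, and 0.33 with equal totals. The difference between Pfkfb3 and Pfkfb2 was 0.96, from 0.76 to 1.16. Within the 4 PFKFB genes, the share of Pfkfb3 per kilobase was 16.5% in control kidney and 28.1% in the library labelled CKO.

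**Figure D2:**
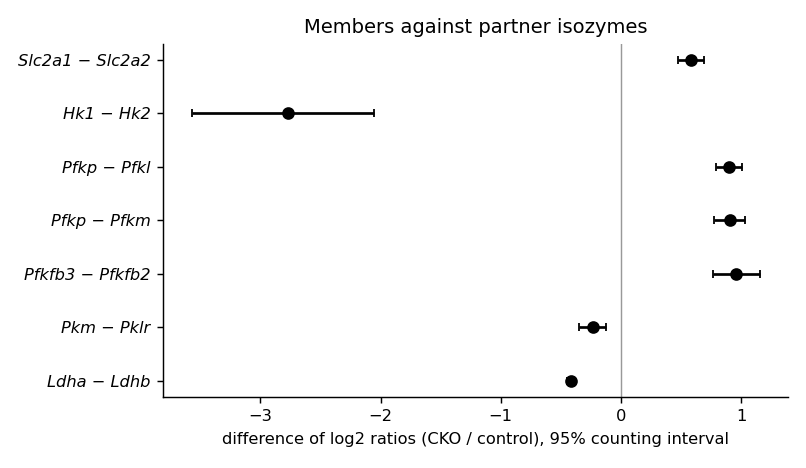
Difference of log2 ratios between a gene and its partner isozyme on the x axis, with 95% exact conditional intervals for counting error (1 library per group). Slc2a1, Pfkp and Pfkfb3 lie above 0, while Hk1 against Hk2 at -2.77, Pkm against Pklr at -0.24 and Ldha against Ldhb at -0.42 lie below it.

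Each of the 5 later genes had more reads in both libraries than any of the 5 before. Aldoa, aldolase A (gene ID 11674, chromosome 7 from 126800790 to 126809108), was read 28418 times in control kidney and 34619 times under the CKO label. Its log2 ratio was -0.30, from -0.32 to -0.28, but 0.12 with equal totals.

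Gapdh, glyceraldehyde 3-phosphate dehydrogenase (gene ID 14433, chromosome 6 from 125161715 to 125166467), was read 25958 times in control kidney and 24273 times under the CKO label. Its log2 ratio was -0.68, from -0.71 to -0.66, and it was below 0 in each scaling tried. Pgk1, phosphoglycerate kinase (gene ID 18655, chromosome X from 106187100 to 106203699), had 18170 and 21082 reads (log2 ratio -0.37), from -0.40 to -0.34, but 0.05 with equal totals. Gapdh is often used as a reference gene, and in these libraries its ratio was not 0 under any scaling tried.

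Pkm, which encodes the M1 and M2 pyruvate kinases (gene ID 18746, chromosome 9 from 59656368 to 59679375), was read 9378 times in control kidney and 14197 times under the CKO label. Its log2 ratio of 0.01, from -0.02 to 0.05, showed no difference detectable at this depth under the main scaling, and it was 0.43 with equal totals. The gene values do not separate the M1 from the M2 form. Pklr, the liver and red cell pyruvate kinase, had 1127 and 2008 reads (log2 ratio 0.25). The log2 ratio of Pkm minus that of Pklr was -0.24, from -0.35 to -0.12. Pkm held 90.9% of the pyruvate kinase reads per kilobase in control kidney and 89.4% in the library labelled CKO.

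Lactate production was represented by Ldha, the lactate dehydrogenase subunit that favours lactate formation (gene ID 16828, chromosome 7 from 46841475 to 46855627). It was read 23683 times in control kidney and 21827 times under the CKO label. Its log2 ratio of -0.70, from -0.73 to -0.68, was the lowest of the 10 genes and below 0 in each scaling tried. Ldhb, the subunit of oxidative tissue, had 47380 and 58354 reads (log2 ratio -0.28), which equal totals turn above 0. The difference, Ldha minus Ldhb, was -0.42, from -0.45 to -0.39. The share of Ldha in the lactate dehydrogenase reads per kilobase was 26.4% in the control, from 26.1% to 26.7%, and 21.2% in the library labelled CKO, from 20.9% to 21.4%. Lactate itself was not measured in these libraries.

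The signs of Aldoa, Pgk1 and Pkm depended on the scaling. The lowest ratio among the 5 genes of entry and commitment, that of Hk1 at 0.43, lay above the highest among the 5 later genes, that of Pkm at 0.01. This grouping by place in the pathway was made after the values were seen, and a library factor shifts all genes alike, so the scalings cannot change the gap. The gap holds for these 10 genes and not for the steps as a whole. Of other early genes, Slc2a2 at -0.12, Pfkfb2 at -0.09, Pfkl and Pfkm at -0.24 lay below Pkm, while Hkdc1 at 1.03 and Hk3 at 3.07 lay above Hk1. Of other later genes, Pklr at 0.25 and Eno2 at 1.87 lay above Pkm, while Ldhb at -0.28 and Tpi1 at -0.79 lay below it. The reads of the 5 early genes summed to 7274 in the control and 10561 after scaling in the library labelled CKO, and those of the 5 later genes to 105607 and 77332.

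**Figure D3:**
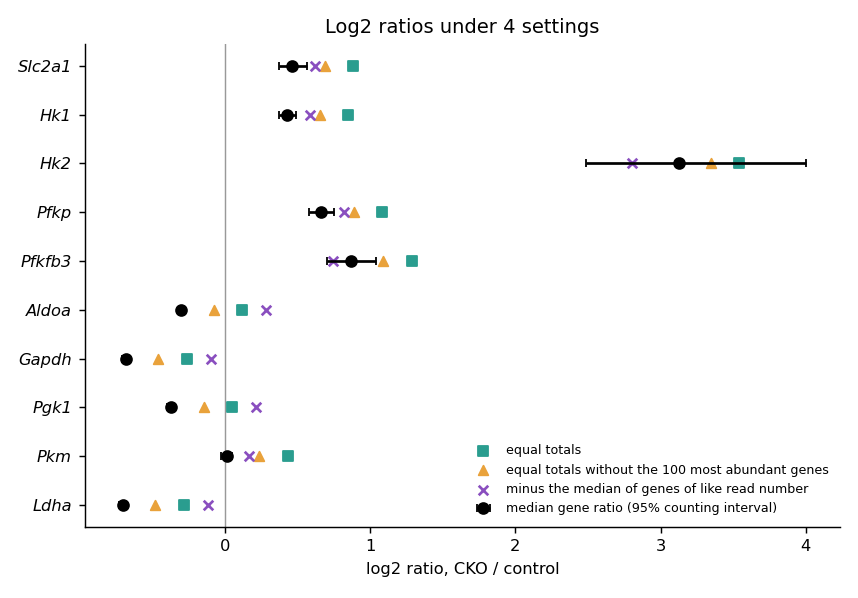
Log2 ratio of CKO to control for each gene under the main scaling (black, with 95% counting intervals) and under 3 other settings. The 5 genes from Slc2a1 to Pfkfb3 lie above 0 in the 4 settings, Gapdh and Ldha lie below 0 in the 4, and Aldoa and Pgk1 lie above 0 with equal totals and after subtraction of the median of genes of like read number.

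The later genes are also the more abundant ones, and abundant genes had lower ratios in general. The median log2 ratio was 0.32 over 4326 genes with a mean of 10 to 100 reads, 0.12 over 6699 genes from 100 to 1000, -0.15 over 5512 genes from 1000 to 10000 and -0.59 over 432 genes above. Relative to genes of like read number, Ldha was at -0.12, Gapdh at -0.10, Pgk1 at 0.21 and Aldoa at 0.29. On the same measure, which was added after the values were seen and can reorder the genes, Hk1 was at 0.58, Slc2a1 at 0.62, Pfkfb3 at 0.75, Pfkp at 0.82 and Hk2 at 2.80. The distance from Hk1 down to the highest later gene, then Aldoa, was 0.30 in place of 0.42, and Pfkp passed Pfkfb3. The part of read level in the low ratios of the later genes was not tested.

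**Figure D4:**
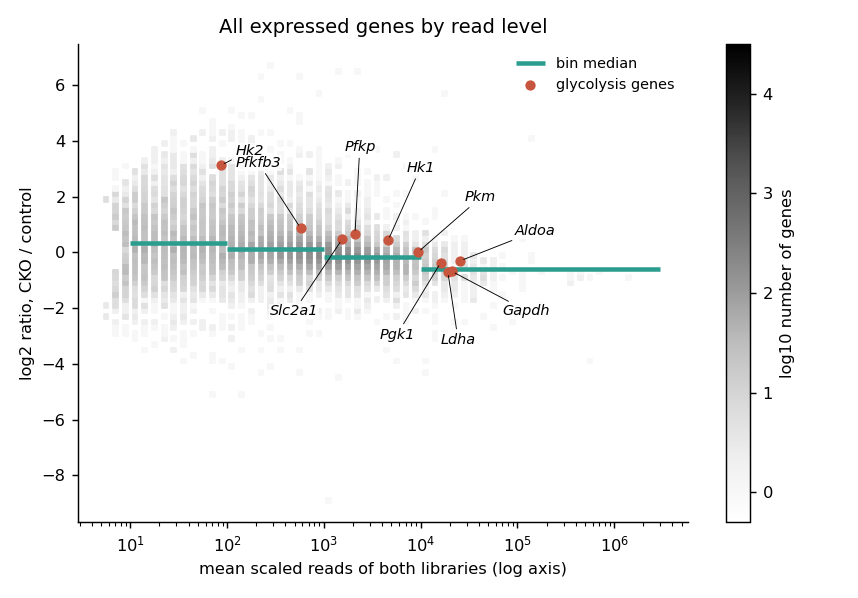
Density of all 17469 genes by mean scaled reads of both libraries (log axis) and log2 ratio of CKO to control, with the median of each read level as a green line and the 10 genes as red points. The medians go from 0.32 in the lowest level to -0.59 in the highest, where Aldoa, Gapdh, Pgk1 and Ldha lie.

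Other glycolysis genes were mostly a little lower under the main scaling. Of 23 listed, 21 were measured, 7 with a ratio above 0 and 14 below, beside 51.5% of all genes above 0. The median was -0.20, which equal totals move to 0.21. At least 2-fold higher were 3 of 21, Hk3, Hkdc1 and Eno2, which is 14.3% beside 13.4% of all genes, and at least 2-fold lower were 0, beside 5.35%. The higher count was 2 with 10 in place of 1 added to each value, beside 10.4% of all genes, where Hkdc1 was at 0.93 and Hk3 at 1.98, outside its interval. It was also 2, without Hk3, when at least 50 scaled reads were required, beside 11.2%. Eno2, the neuronal-type enolase, had 36 and 201 reads (log2 ratio 1.87), from 1.38 to 2.45, yet made up only 0.551% of enolase reads per kilobase in the library labelled CKO. The lowest was Tpi1, triose phosphate isomerase, at -0.79 with 41992 and 36447 reads. The other 2 were not analysed here.

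Carriers of glucose and lactate differed widely. Of 14 genes, 4 had ratios above 0 and 10 below, beside 51.5% of all genes above 0. The median was -0.30, which equal totals move to 0.12. In each direction 1 gene, or 7.14%, passed 2-fold, beside 13.4% of all genes higher and 5.35% lower. Slc16a3, which encodes the lactate exporter MCT4, was read 10 times in control kidney and 80 times under the CKO label, giving a log2 ratio of 2.30 with an interval of 1.46 to 3.53. Slc5a8, a sodium-coupled lactate carrier of the proximal tubule, had 11067 and 5731 reads and was the lowest at -1.53, from -1.58 to -1.49. Slc5a12, another carrier of that kind and the gene with most control reads in the list, had 25259 and 50338 reads (log2 ratio 0.41). These 2 lactate uptake carriers thus differed in opposite directions.

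Genes for the entry of pyruvate into mitochondria were mostly lower. Of 13, 2 had ratios above 0 and 11 below, beside 51.5% of all genes above 0. The median was -0.61, or -0.19 with equal totals. Pdha1, a subunit of pyruvate dehydrogenase and the most abundant of the list, had 16640 and 16377 reads (log2 ratio -0.61). The lowest was Pdk3, a kinase that inhibits this enzyme, at -1.36, the 1 gene of the list at least 2-fold lower, or 7.69% beside 5.35% of all genes, and at -0.94 with equal totals. The highest was Pdp1, a phosphatase that activates it, at 0.78. Abundant genes had lower ratios in general, as described above. Relative to genes of like read number, Pdha1 was at -0.02, Pdk3 at -1.21 and Pdp1 at 0.66. The part of read level in this list was not tested.

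Genes of gluconeogenesis and fructose breakdown had the lowest median of the 6 lists, -0.70, or -0.28 with equal totals. Of 9, 2 had ratios above 0 and 7 below, beside 51.5% of all genes above 0. Pck1, the phosphoenolpyruvate carboxykinase of the cytosol, had 54962 and 50845 reads (log2 ratio -0.70). Khk, ketohexokinase, was the lowest at -1.14 and Glyctk, glycerate kinase, was at -1.05, the 2 genes at least 2-fold lower, or 22.2% beside 5.35% of all genes. Neither passed 2-fold with equal totals, at -0.73 and -0.63, or without the 100 most abundant genes in the totals, at -0.92 and -0.83. Pck2, the mitochondrial carboxykinase, was the highest at 0.67. Relative to genes of like read number, Pck1 was at -0.11, Khk at -0.56, Glyctk at -0.89 and Pck2 at 0.54. The part of read level in the low ratios of this list was not tested.

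**Figure D5:**
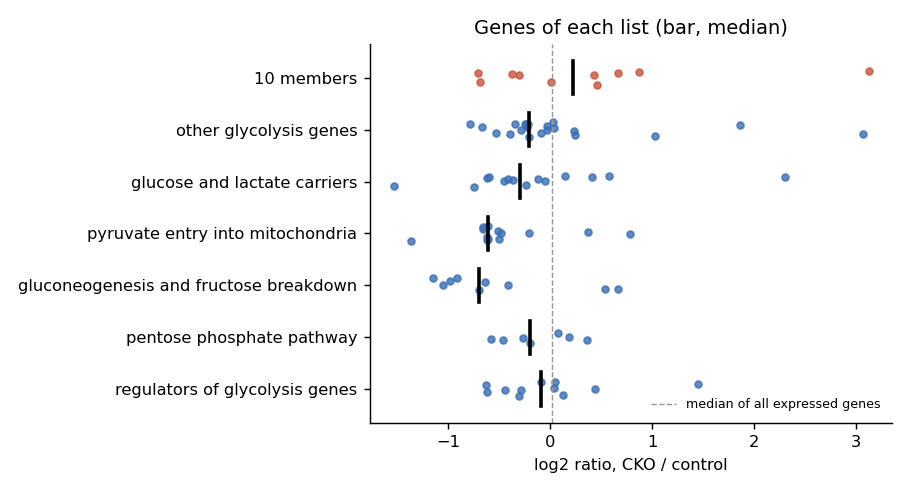
Log2 ratio of CKO to control for each measured gene of the 10 genes (red) and of 6 other lists (blue), with black bars for list medians and a dashed line for the median of all genes at 0.02. The bars run from 0.22 for the 10 genes to -0.70 for gluconeogenesis and fructose breakdown, and 4 of the 6 blue medians turn above 0 with equal totals.

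Markers of the cells in a whole kidney also differed between the libraries. Fewer cells of a type and less RNA per cell cannot be told apart in bulk samples. Of 11 proximal tubule markers, 1 had a ratio above 0 and 10 below, beside 51.5% of all genes above 0. The median was -0.91, or -0.49 with equal totals. At least 2-fold lower were 5 of the 11, or 45.5% beside 5.35% of all genes. Most of these markers had more than 10000 reads, a level where the median of all genes was -0.59. Relative to genes of like read number, Kap was at -3.24 and Slc5a12 at 0.995. The part of read level in these ratios was not tested. The sum of the 11 went from 1691746 to 388835 scaled reads. The most abundant was Kap, an androgen-dependent kidney protein, which was also the lowest at -3.83, and without it the sum of 10 markers went from 704226 to 319393. The highest was Slc5a12 at 0.41. All 9 measured markers of injured proximal tubule were at least 2-fold higher, beside 13.4% of all genes, with a median of 3.67. The sum of the 9 went from 22737 to 337183 scaled reads. Spp1, osteopontin, was the most abundant, Lcn2 the highest at 6.45 and Krt18 the lowest at 2.04, while Krt20 was not analysed here.

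The measured immune, stromal and cell cycle markers had ratios above 0, though Csf1r, Pdgfrb, Mcm2 and S100a8 were not 2-fold higher. Of all genes, 51.5% had ratios above 0 and 13.4% were at least 2-fold higher. All 11 macrophage markers had ratios above 0 and 10 were at least 2-fold higher, with a sum of 6518 and 33684 scaled reads, Cd74 as the most abundant, Ms4a7 as the highest at 4.33 and Csf1r as the lowest at 0.51. All 7 fibroblast markers were higher, with sums of 6063 and 21325 scaled reads, Col3a1 as the most abundant, Col1a1 at 2.65 and Pdgfrb at 0.48. All 8 proliferation markers had ratios above 0, with sums of 1128 and 3107 scaled reads. They ran from Mcm2, the most abundant in control, at 0.22 to Cdk1 at 3.13. Neutrophil and lymphocyte markers were few. The 3 measured of 7 neutrophil markers summed to 42 and 173 scaled reads, with Csf3r the most abundant and highest at 2.37. S100a8 was the lowest at 0.77, with an interval of -0.46 to 2.35 that includes 0. The 4 measured of 8 T and B cell markers summed to 42 and 142 scaled reads, with Cd4 the most abundant, Cd8a at 1.99 and Cd2 at 1.27.

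Other nephron segments and vessels differed less under the main scaling. Of 11 markers of thick limb, distal tubule and collecting duct, 7 had ratios above 0, beside 51.5% of all genes. Their sums were 153314 and 187842 scaled reads. Their median was 0.20, or 0.62 with equal totals, where the proximal tubule median was -0.49. Umod was the most abundant, Cldn16 the highest at 0.83 and Pvalb the lowest at -1.17. The 5 podocyte markers had a median of -0.11 and sums of 8426 and 8023 scaled reads, with Podxl the most abundant and Synpo the highest at 0.28. The 7 endothelial markers had a median of -0.10 and sums of 11734 and 10521 scaled reads, with Emcn at 0.14 and Kdr, the most abundant, at -0.67. The 5 measured red blood cell markers had a median of -0.01 and sums of 14521 and 14430 scaled reads, with Hbb-bs the most abundant, Alas2 at 0.09 and Hba-a2 at -0.06. Equal totals turn these 3 medians above 0. Of 6 skeletal muscle markers only Mylpf was measured, with 10 and 32 unscaled reads, and the 4 adipose markers were not analysed here. The part of these cell types in the ratios of the glycolysis genes was not tested.

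Near-identical copies and overlapping genes make some values uncertain. Pgk1-rs7, a copy of Pgk1, had 1228 and 1477 reads, Ldha-ps2 had 5 and 16, and Gapdh-ps14 had 1 in each library. Beyond the 10 genes, Eno1b, a copy of Eno1, had 5539 and 7183 reads. How reads that match several copies were shared was not stated. Hk1os, which is antisense to Hk1, had 18 and 13 reads beside 3931 and 7949 of Hk1, and whether counting used the strand was not stated, so their reads may not be told apart.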

How the data were processed

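RNA of 1 whole kidney library per group was sequenced with a stranded mRNA kit. Alignment by the authors used STAR 2.7.3a, with read counting in HTSeq and DESeq2 normalization, and the submitters' processing notes name the build mm10, the same assembly as GRCm38. The deposited values are a score with no standard unit, which the authors call normalized: whole numbers with lowest values of 35 and 51. The column minimum minus 1, 34 and 50, was subtracted as a floor. That what is left are reads is an inference, and every counting interval rests on it. A gene was kept if 1 library had 10 or more scaled reads, the pseudocount was 1 and the threshold 2-fold. With 1 library per group no test between groups was made. Isozyme differences are log2 odds ratios with exact conditional 95% intervals.

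The members and lists were chosen with earlier results of these data known. Genes named are the 10 members, Zc3h12b, the partner isozymes, of each pathway list the highest, the lowest, the most abundant in control and those past 2-fold, and of each marker list the most abundant, highest and lowest. Some genes that this rule takes, and 1 isozyme pair, are not reported here. Isozyme shares, the subtraction by read level, the early and late grouping, the printed promoters, the proximal tubule sum without Kap and the gene copies were added after seeing the data. Lengths and coordinates came from GENCODE M21, as the longest protein-coding transcript. Alternatives were pseudocounts, filters, floors, thresholds, scalings, read level and transcript lengths. The steps were tested on simulated counts with as many genes raised as lowered and no trend with read level. These libraries differ on both points, so the simulation does not check the scaling for them. Computation used scipy 1.17.1, pandas 2.3.3 and numpy 2.4.6 under Python 3.11.15, with matplotlib 3.10.9 for figures.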

Additional observations from a re-analysis of the deposited data

How the results depend on the processing

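No paired analysis was possible because there was only 1 library in a group. Of 936 values recomputed under 13 alternatives, 675 stayed within their interval or within 1.5 times a count. Another 232 moved, and 29 were counted as changes of sign. The count of sign changes covers ratios of the members and list medians only. Other named genes that changed sign, such as Slc2a2 and Ldhb with equal totals, were counted as moved. Zc3h12b also changed sign with equal totals but was counted as within its interval. The 5 genes from Slc2a1 to Pfkfb3 were above 0, and Gapdh and Ldha below 0, under the 9 alternatives that recompute these ratios. Filters and thresholds leave them as they are. Of 14 recomputed isozyme differences, 13 stayed within their interval. The shift of a scaling is its own construction, and the cause of other moves was not tested. The scaling assumes that most genes did not differ, which 1 library per group cannot check, and low control reads limit Hk2, Hk3, Slc16a3 and Ms4a7.

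With equal totals, log2 ratios were 0.88 for Slc2a1, 0.85 for Hk1, 1.08 for Pfkp, 1.29 for Pfkfb3, 0.12 for Aldoa, -0.26 for Gapdh, 0.0485 for Pgk1, 0.43 for Pkm and -0.28 for Ldha, and 3 members were at least 2-fold higher, beside 21.9% of all genes. List medians were 0.21 for other glycolysis genes, 0.12 for carriers, -0.19 for pyruvate entry, 0.22 for the pentose phosphate pathway, 0.33 for regulators, 0.30 for podocyte, 0.32 for endothelium and 0.41 for red blood cell markers. Pyruvate entry and gluconeogenesis each had 1 gene at least 2-fold higher and 0 lower, beside 21.9% and 2.47% of all genes. Without the 100 most abundant genes in the totals, ratios were 0.69 for Slc2a1, 0.65 for Hk1, 0.89 for Pfkp, 1.09 for Pfkfb3, -0.0767 for Aldoa, -0.46 for Gapdh, -0.15 for Pgk1, 0.24 for Pkm and -0.48 for Ldha. Then 2 members and 1 gene of pyruvate entry were at least 2-fold higher, beside 17.3% of all genes. Gluconeogenesis had 0 lower, beside 3.48% of all genes. The medians were 0.0187 for other glycolysis genes, 0.0263 for the pentose phosphate pathway, 0.14 for regulators, 0.11 for podocyte, 0.12 for endothelium and 0.21 for red blood cell markers. The share of higher among all 2-fold differences was 71.4% as reported, 83.3% here and 96.5% with the values as deposited.

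With equal upper quartiles, Aldoa was at -0.27, Gapdh at -0.65, Pgk1 at -0.34, Ldha at -0.67 and the red blood cell median at 0.0194. Pkm was at -0.00598 with the median of expressed genes set to 0 and at -0.00534 with the column minimum as the floor.

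With the values as deposited, ratios were 1.04 for Slc2a1, 1.01 for Hk1, 2.45 for Hk2, 1.24 for Pfkp, 1.40 for Pfkfb3, 0.29 for Aldoa, -0.10 for Gapdh, 0.22 for Pgk1, 0.60 for Pkm and -0.12 for Ldha, with 5 members at least 2-fold higher, beside 17.9% of all genes, and Hk1 minus Hk2 was -1.46. Medians were 0.39 for other glycolysis genes, 0.29 for carriers, -0.0207 for pyruvate entry, 0.39 for the pentose phosphate pathway, 0.50 for regulators, 0.48 for podocyte, 0.48 for endothelium and 0.57 for red blood cell markers. Carriers, pyruvate entry and gluconeogenesis had 0 genes at least 2-fold lower, beside 0.655% of all genes. Pyruvate entry had 1, gluconeogenesis 2 and regulators 2 higher, beside 17.9%.

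At 1.5-fold, 3 members were higher and 2 lower, beside 21.8% and 13.9% of all genes. Other glycolysis genes had 2 lower, carriers 4 lower, pyruvate entry 1 higher and 7 lower, gluconeogenesis 1 higher and 6 lower, and regulators 2 lower. At 4-fold, other glycolysis genes had 1 higher and regulators 0 higher, beside 4.29% of all genes. Carriers, pyruvate entry and gluconeogenesis had 0 lower at 4-fold, beside 0.95%. All genes past 1.5-fold were 3801 higher and 2423 lower, and past 4-fold 749 and 166, against 2334 and 934 at 2-fold. With equal totals the counts were 3870 and 437, without the 100 most abundant genes 3049 and 613, and as deposited 3574 and 131.

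Relative to genes of like read number, an alternative chosen after seeing the data, Slc2a1 was at 0.62, Hk1 at 0.58, Pfkp at 0.82, Aldoa at 0.29, Gapdh at -0.10, Pgk1 at 0.21, Pkm at 0.17 and Ldha at -0.12.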

Other observations

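Regulators of glycolysis genes showed no common direction. Of 11 genes, 5 had log2 ratios above 0 and 6 below, beside 51.5% of all genes above 0. The median was -0.08, which equal totals move to 0.33. Myc, a transcription factor known to act on glycolysis genes, was read 195 times in control kidney and 800 times under the CKO label, giving a log2 ratio of 1.45 with a counting interval of 1.22 to 1.68, the 1 gene of the list at least 2-fold higher, beside 13.4% of all genes. Esrra, a receptor that acts on genes of oxidative metabolism, was the lowest at -0.62. Txnip, which limits glucose uptake and was the most abundant of the list in control, had 9396 and 14478 reads (log2 ratio 0.04).

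The pentose phosphate pathway branches from glucose 6-phosphate and makes NADPH and ribose. It had 3 of 7 genes above 0 and 4 below, beside 51.5% of all genes above 0. None passed 2-fold, beside 13.4% of all genes higher and 5.35% lower. The median was -0.20, which equal totals move to 0.22. Rpia, ribose 5-phosphate isomerase, was the highest at 0.36 and Taldo1, transaldolase, the lowest at -0.58. Tkt, transketolase, was the most abundant, with 7731 and 10115 reads and a log2 ratio of -0.20.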
